A study of Mus musculus with 12 samples.

Results

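The genes of intraflagellar transport (IFT), of the BBSome and of the transition zone of the cilium were measured in fallopian tubes of transgenic and wildtype mice. Members were taken by a rule on the annotated symbol, where it names a subunit or close partner of these complexes. The platform annotation held 44 such genes with 65 probes. Values were present for 39 genes and 53 probes, out of 11229 named genes, and Rpgrip1, Ttc30a2, Ttc30b, Wdr19 and Wdr35 were blank on every array and were not analysed here. The 39 genes comprised 15 of IFT-B, 3 of IFT-A, 3 of dynein-2, 7 of the BBSome, 1 chaperonin-like assembly factor of the BBSome, 6 of the MKS module, 3 of the NPHP module and its partner RPGR, and 1 ARL GTPase.

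Cilia are built and supplied by a transport machinery that moves along the microtubules of the axoneme. The IFT trains hold an IFT-B complex, which travels outward with kinesin-2, and an IFT-A complex, which returns with the motor dynein-2. The BBSome is an adaptor that rides these trains and carries membrane proteins, and the transition zone is the gate at the base of the cilium, made of an MKS module and an NPHP module. In the fallopian tube the multiciliated epithelial cells, which move the egg and fluid, carry many motile cilia, and many other cell types carry a single primary cilium built with the same machinery.

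The samples were fallopian tubes of 3 mogp-TAg transgenic female mice on the C57BL6 background and of 3 wildtype female C57BL6 mice, with 1 mouse of each genotype aged 7, 8 and 9 weeks. The mogp-TAg mouse expresses the large T antigen of SV40, which inactivates RB proteins and p53, under the promoter of Ovgp1, the oviductal glycoprotein gene, which is known for its activity in the secretory cells of the tube. The comparison of transgenic with wildtype tubes asks how expression differs early in this model of tubal tumour development. Each mouse was measured on 2 Illumina BeadChip arrays, called repeats in the labels, and the mouse was the replicate.

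The arrays recorded probe brightness, and the array median ran from 136.9 to 331.85 signal units, higher in repeat 1 than in repeat 2 in 6 of 6 mice. Levels below are quantile-normalized signals, averaged over the repeats on the log2 scale, and each difference is a log2 difference of transgenic minus wildtype mice. Ovgp1 itself, a marker of secretory cells, had a signal of 18938, 20773 and 18541 in the mogp-TAg mice of 7, 8 and 9 weeks, against 23026, 22353 and 23114 in the wildtype mice. This tubal marker was bright in every mouse, and every mogp-TAg mouse lay below every wildtype mouse, an order found in 22.3% of all genes. Top2a, a marker of dividing cells, stood at 1356, 2584 and 2302 in the mogp-TAg mice and at 134, 257 and 163 in the wildtype mice. The whole tissue was measured, so fewer cells of a type and less RNA per cell cannot be told apart.

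Promoter sequences are shown for 5 members that hold letters close to the X-box, the site bound by RFX factors, which switch on genes of ciliary transport in many animals. The palindromic X-box consensus, with 12 fixed positions, was searched on both strands over 250 bases before to 50 after each RefSeq start on GRCm38.p6, and windows were found for 34 of the 39 genes. Capitals mark the match, 5′ to 3′ on the gene's strand. Tctn2, Bbs7 and Ttc26 differ from the X-box at 1 of 12 fixed positions and were lower in the transgenic mice. Ift22 and Ift57 differ at 2 and did not pass the test. B9d1 and Wdr34 also differ at 2 and fell, and Bbs1 differs at 2 and did not pass, but their matches reach or lie past the start and are not printed. Within 2 mismatches a match was held by 6 of 21 lower genes with a window and by 3 of 13 others. The Tctn2 stretch is chr5:124598652-124598735 on the plus strand, with the match starting 62 bases before the start. The Bbs7 stretch is chr3:36613489-36613518 on the minus strand, 121 bases before the start. The Ttc26 stretch is chr6:38381483-38381512 on the plus strand, 33 bases before this start and inside the annotated gene span. The Ift22 stretch is chr5:136908082-136908149 on the plus strand, 33 bases before the start, and the Ift57 stretch is chr16:49699172-49699255 on the plus strand, 87 bases before the start.
Tctn2: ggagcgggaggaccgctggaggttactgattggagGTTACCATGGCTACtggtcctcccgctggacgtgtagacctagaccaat
Bbs7: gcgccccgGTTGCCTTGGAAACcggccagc
Ttc26: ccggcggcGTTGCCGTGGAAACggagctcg
Ift22: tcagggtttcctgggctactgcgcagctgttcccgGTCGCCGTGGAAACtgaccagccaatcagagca
Ift57: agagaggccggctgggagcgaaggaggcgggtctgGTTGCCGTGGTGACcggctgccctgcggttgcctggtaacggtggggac

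Most of the transport and gate genes were lower in the transgenic tubes. Of the 39 genes, 24 fell and 0 rose by limma, with p-values adjusted by the Benjamini-Hochberg method across 16664 probes and a threshold of 0.05. Before adjustment 29 had a p below 0.05. Among all 11229 genes tested, 12.5% were called lower and 10.4% higher in the mogp-TAg mice, or 22.9% in either direction. The median log2 difference was -0.40 over the 39 genes and -0.02 over all genes. The 24 lower genes stood at 44.6% to 78.5% of their wildtype level, and 10 of them were more than 1.5-fold lower. In 29 of 39 genes every transgenic mouse lay below every wildtype mouse, a pattern found in 22.3% of all genes tested. The opposite order was found in 0 of 39, against 18.9% of all genes. The count rested on which mice entered: without the 8-week mogp-TAg mouse 11 genes fell, against 6.09% of all genes. Without both 7-week, both 8-week or both 9-week mice, an alternative chosen after seeing the data, 15, 9 and 11 fell, against 9.07%, 4.72% and 5.44% of all genes.

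**Figure D1:**
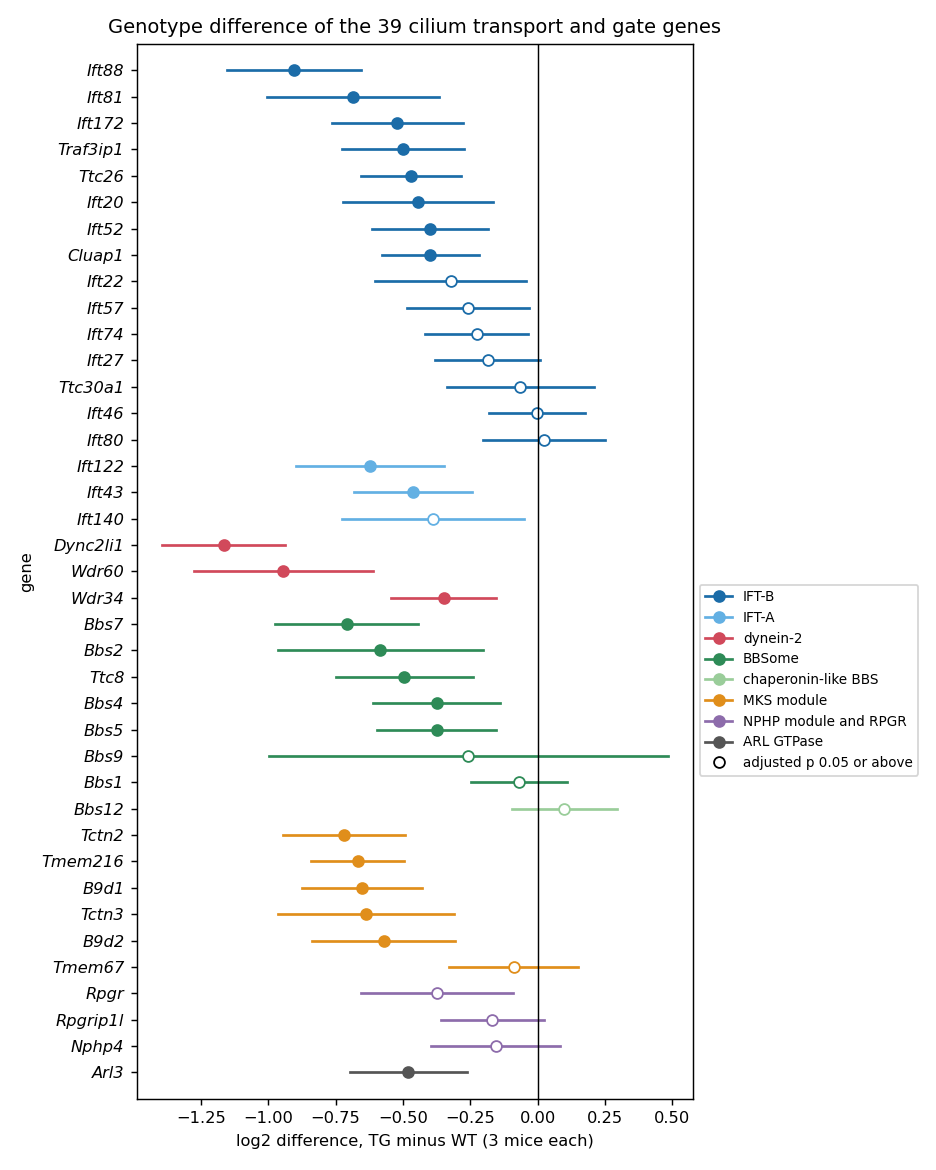
Log2 difference of mogp-TAg (TG) minus wildtype (WT) mice for each of the 39 genes, on the horizontal axis, with genes down the page grouped by complex. Points are the fitted differences over 3 mice each, bars are 95% confidence intervals, and filled points have an adjusted p below 0.05. All 24 filled points lie left of 0, from -0.35 to -1.16.

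The 2 largest differences belonged to the retrograde motor dynein-2, and all 3 of its measured subunits fell. Dync2li1, the light intermediate chain, had signals of 593, 514 and 495 in the mogp-TAg mice of 7, 8 and 9 weeks, against 1259, 1159 and 1165 in the wildtype mice. The groups were far apart, and the transgenic level was 44.6% of the wildtype level (log2 -1.16, SE 0.10, adjusted p = 4.60e-04, n = 3 mice per genotype, limma). Wdr60, an intermediate chain, had 322, 285 and 231 in the mogp-TAg mice, against 558, 469.8 and 576 in the wildtype mice (log2 -0.94, SE 0.14, adjusted p = 0.00406, limma). Its lowest value was that of the 9-week mogp-TAg mouse. Wdr34, the other intermediate chain, had 454, 480.1 and 491 in the mogp-TAg mice and 612, 570.3 and 633 in the wildtype mice (log2 -0.35, SE 0.08, adjusted p = 0.0244, limma), a smaller difference without overlap. The Wdr34 call was lost with all 12 arrays fitted and mouse as a random block (adjusted p = 0.0785, limma). With repeat number as a block it was lost as well (adjusted p = 0.0738, limma). Wdr34 was called neither on repeat 1 alone (-0.22, adjusted p = 0.35) nor on repeat 2 alone (-0.48, adjusted p = 0.0506). Its call was also lost without the 7- or 8-week mogp-TAg or the 7- or 9-week wildtype mouse (adjusted p = 0.0551 to 0.0853).

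IFT-B, the outward complex, had 8 of 15 measured subunits lower and 0 higher, with a median log2 difference of -0.40 and a range of -0.90 to 0.02. Ift88, a core subunit whose loss in mice stops cilium assembly, had 339, 352 and 407 in the mogp-TAg mice, against 621, 714 and 719 in the wildtype mice. It stood at 53.5% of the wildtype level (log2 -0.90, SE 0.11, adjusted p = 0.00141, limma). Ift81, which binds tubulin together with Ift74, had 1379, 1124 and 1145 in the mogp-TAg mice and 2228, 1650.3 and 2008 in the wildtype mice (log2 -0.69, SE 0.14, adjusted p = 0.0126, limma), and all 3 of its probes fell. Ttc26, a core subunit whose promoter is shown above, had 214, 208 and 228 in the mogp-TAg mice and 293, 299.7 and 307 in the wildtype mice (log2 -0.47, SE 0.08, adjusted p = 0.00650, limma). These values were tight within each genotype and did not overlap. The Ift81 call was lost without the 8-week mogp-TAg mouse (adjusted p = 0.0615, limma).

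The peripheral subunits of IFT-B link the trains to kinesin-2. Ift172, the largest of them, had 2275, 2556 and 2369 in the mogp-TAg mice, against 3153, 3337 and 3871 in the wildtype mice (log2 -0.52, SE 0.10, adjusted p = 0.0125, limma). Its other probes were lower without passing (-0.28, adjusted p = 0.153 and -0.29, adjusted p = 0.218). Traf3ip1, also peripheral, had 136, 123 and 124 in the mogp-TAg mice and 185, 195 and 164 in the wildtype mice (log2 -0.50, SE 0.10, adjusted p = 0.0113, limma). Cluap1, another peripheral subunit, had 374, 363 and 347 in the mogp-TAg mice and 470.3, 483 and 475 in the wildtype mice (log2 -0.40, SE 0.08, adjusted p = 0.0108, limma). In neither gene did the genotypes overlap. The core subunit Ift52 had 1184, 1123 and 993 in the mogp-TAg mice and 1416, 1447 and 1480.0 in the wildtype mice (log2 -0.40, SE 0.09, adjusted p = 0.0214, limma). Ift20, the subunit also found at the Golgi, had 2399.7, 2278 and 2966 in the mogp-TAg mice and 3721, 3327 and 3298 in the wildtype mice (log2 -0.44, SE 0.12, adjusted p = 0.0369, limma), and the 9-week mogp-TAg mouse lay closest to the wildtype range. Another Ift20 probe fell (-0.61, adjusted p = 0.0255) and its last did not (0.01, adjusted p = 0.968), so the probes of this gene disagree. The Ift20 call was lost with the mean of its probes (adjusted p = 0.0766, limma), on repeat 1 alone (adjusted p = 0.111) and without any 1 mouse other than the 9-week mogp-TAg mouse (adjusted p = 0.0618 to 0.137). The Ift52 call was lost without the 8- or 9-week mogp-TAg or the 7- or 9-week wildtype mouse (adjusted p = 0.0509 to 0.0726). Without the 8-week mogp-TAg mouse Traf3ip1 (adjusted p = 0.0566) and Cluap1 (adjusted p = 0.0508) were not called, and with the mean of its probes Ift172 was not (adjusted p = 0.0616). Cluap1 was called neither on repeat 1 alone (adjusted p = 0.0698) nor on repeat 2 alone (adjusted p = 0.0714, limma).

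A further 7 IFT-B genes did not pass the test. Ift22, a Rab-like GTPase, differed by -0.32, adjusted p = 0.0992, and Ift57, a peripheral subunit, by -0.26, adjusted p = 0.0989. Ift74, the partner of Ift81, differed by -0.23, adjusted p = 0.0911. Ift27, the Rab-like GTPase that connects the trains to BBSome function, had 683, 766 and 737 in the mogp-TAg mice and 808, 818 and 857 in the wildtype mice (log2 -0.19, SE 0.08, adjusted p = 0.157, limma), without overlap, while its other probe fell (-0.50, adjusted p = 0.0113). Ift46, a core subunit, differed by -0.0034, adjusted p = 0.983, with a 95% confidence interval -0.18 to 0.18. Ift80, a peripheral subunit, differed by 0.02, adjusted p = 0.893, with a 95% confidence interval -0.20 to 0.25. Ttc30a1 differed by -0.06, adjusted p = 0.734, and as a near-identical copy of Ttc30a2 and Ttc30b its probe may share their transcripts. Ift57, Ift74, Ift46 and Ttc30a1 lay among the 25% dimmest probes, under a mean signal of 125.2, where any difference would be understated. With normexp background correction they differed, in this order, by -0.35, -0.32, -0.0037 and -0.09 (adjusted p = 0.0869, 0.0679, 0.985 and 0.713, limma).

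IFT-A, the return complex, had 2 of 3 measured subunits lower. Ift122, a core subunit, had 219, 198 and 219 in the mogp-TAg mice, against 326, 283 and 375 in the wildtype mice (log2 -0.62, SE 0.12, adjusted p = 0.0101, limma). Ift43, a small accessory subunit, had 1609.9, 1547 and 1774 in the mogp-TAg mice and 2104, 2395 and 2299 in the wildtype mice (log2 -0.46, SE 0.09, adjusted p = 0.0131, limma). Both genes separated the genotypes fully, and neither was called without the 8-week mogp-TAg mouse (adjusted p = 0.0522 for Ift122 and 0.0645 for Ift43, limma). Ift140, a core subunit, had 716, 637 and 537 in the mogp-TAg mice and 881, 695 and 897 in the wildtype mice. Its groups overlapped through the 7-week mogp-TAg and the 8-week wildtype mouse (log2 -0.39, SE 0.14, adjusted p = 0.0973, limma), and its dim second probe differed by 0.08, adjusted p = 0.555.

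**Figure D2:**
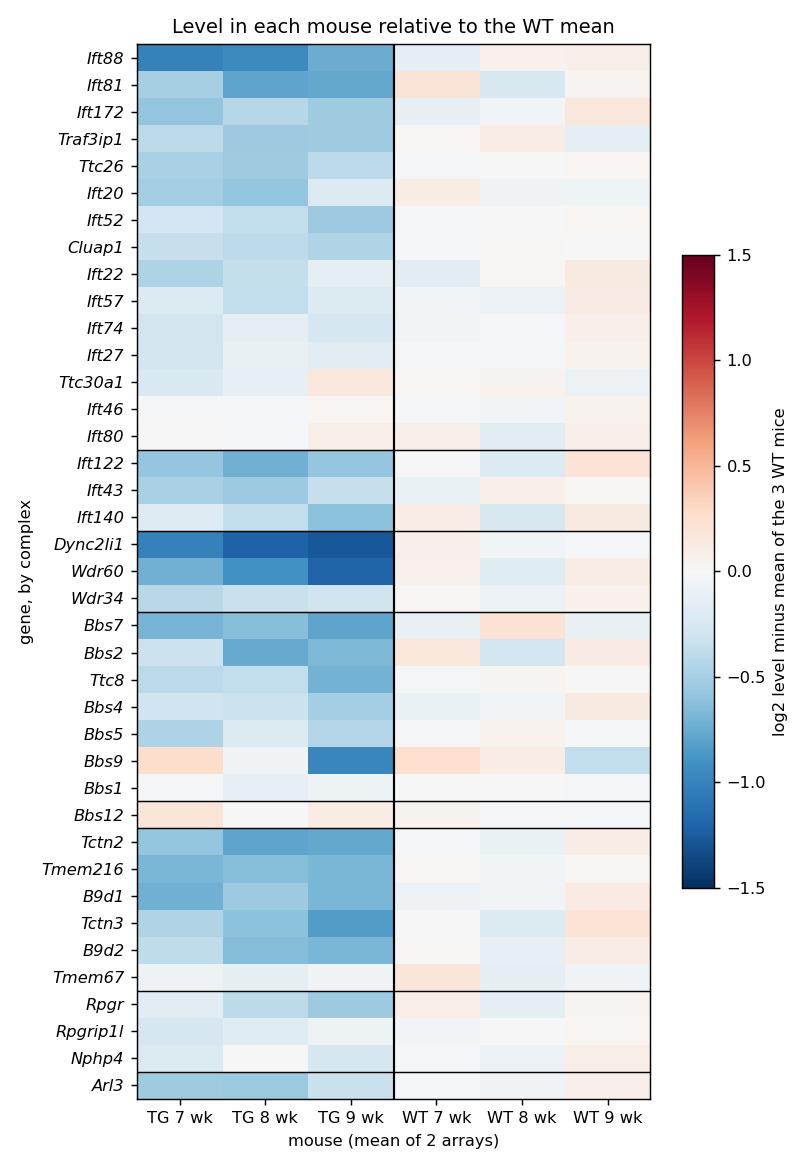
Level of each gene (rows, grouped by complex) in each mouse (columns, mogp-TAg mice of 7, 8 and 9 weeks, then wildtype mice of the same ages), as the log2 level minus the mean of the 3 wildtype mice. Blue marks lower and red higher levels. The means over all 39 genes were -0.38, -0.43 and -0.46 in the mogp-TAg mice, against 0.01, -0.05 and 0.04 in the wildtype mice.

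Among the 7 measured subunits of the BBSome 5 fell and 0 rose, with a median log2 difference of -0.37. Bbs7, a beta-propeller subunit, had 368, 385 and 347 in the mogp-TAg mice, against 553, 698 and 556 in the wildtype mice (log2 -0.71, SE 0.11, adjusted p = 0.00519, limma). The 8-week wildtype mouse stood above the other wildtype mice, and the groups did not overlap. Ttc8, a tetratricopeptide repeat subunit also named BBS8, had 276, 282 and 223 in the mogp-TAg mice and 356, 375 and 363 in the wildtype mice (log2 -0.49, SE 0.11, adjusted p = 0.0184, limma). Both of its probes fell. Bbs2, another beta-propeller subunit, had 331, 245 and 261 in the mogp-TAg mice and 468, 339 and 449.6 in the wildtype mice (log2 -0.58, SE 0.16, adjusted p = 0.0412, limma), with the 7-week transgenic and the 8-week wildtype mouse close together. Bbs4, a repeat subunit, had 476, 470.3 and 412 in the mogp-TAg mice and 549, 571 and 642 in the wildtype mice (log2 -0.37, SE 0.10, adjusted p = 0.0369, limma). Bbs5, which binds phosphoinositides, had 392, 465 and 398 in the mogp-TAg mice and 532, 558 and 531 in the wildtype mice (log2 -0.37, SE 0.09, adjusted p = 0.0297, limma). Neither gene's groups overlapped. These calls were near the threshold. In Bbs2 repeat 2 read below repeat 1 in every mouse, by up to 0.99 within a mouse. Bbs2 lost its call with mouse as a random block over 12 arrays (adjusted p = 0.108, limma). Bbs2 also lost its call without the 8- or 9-week mogp-TAg or the 7- or 9-week wildtype mouse (adjusted p = 0.112 to 0.15, limma). Bbs4 lost it without any 1 mouse other than the 7-week mogp-TAg mouse (adjusted p = 0.0598 to 0.114). Bbs5 lost it without any 1 mouse other than the 8-week mogp-TAg mouse (adjusted p = 0.0671 to 0.0808), and Ttc8 without the 9-week wildtype mouse (adjusted p = 0.0563). On repeats 1 and 2 alone, neither Bbs4 (adjusted p = 0.0698 and 0.120, limma) nor Bbs5 (adjusted p = 0.112 and 0.146, limma) was called.

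The remaining BBSome genes did not pass. Bbs1, the subunit that binds the GTPase ARL6, had 127, 118 and 122 in the mogp-TAg mice and 129, 129 and 127 in the wildtype mice (-0.07, adjusted p = 0.557). Bbs9, which scaffolds the complex, had 310.1, 249 and 131 in the mogp-TAg mice and 309, 279.9 and 200.2 in the wildtype mice (log2 -0.26, SE 0.32, adjusted p = 0.608, limma), and the groups overlapped. Its lowest mouse in each genotype was that of 9 weeks, and its dim second probe differed by 0.13, adjusted p = 0.295. Bbs12, a chaperonin-like protein that helps assemble the BBSome in vertebrates and is no part of it, had 137, 122 and 131 in the mogp-TAg mice and 126, 119.5 and 119 in the wildtype mice (log2 0.10, SE 0.08, adjusted p = 0.439, 95% confidence interval -0.09 to 0.29, limma). It was the only gene of the 39 with a difference above 0 at all 3 ages. Bbs1 and Bbs12 lay close to the dim limit of 125.2, where any difference would be understated.

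In the transition zone the MKS module fell in 5 of 6 measured genes, with a median log2 difference of -0.64. Tctn2, a tectonic, had 306, 267 and 271 in the mogp-TAg mice, against 456, 431 and 499 in the wildtype mice (log2 -0.72, SE 0.10, adjusted p = 0.00254, limma). Tmem216, a membrane protein mutated in human Joubert and Meckel syndromes, had 442, 454 and 442 in the mogp-TAg mice and 715, 692 and 719 in the wildtype mice (log2 -0.67, SE 0.07, adjusted p = 0.00115, limma). The mouse means of Tmem216 lay close together within a genotype, while its repeats differed by up to 0.85 on the log2 scale within a mouse. B9d1, a B9 domain protein, had 980.3, 1113 and 1008 in the mogp-TAg mice and 1527, 1580.1 and 1762 in the wildtype mice (log2 -0.65, SE 0.09, adjusted p = 0.00350, limma). Its partner B9d2 had 260.0, 215 and 211 in the mogp-TAg mice and 341, 309.9 and 365 in the wildtype mice (log2 -0.57, SE 0.11, adjusted p = 0.0123, limma), and the groups of both were apart. Tctn3, another tectonic, had 1465, 1308 and 1127 in the mogp-TAg mice and 2022, 1739 and 2313 in the wildtype mice (log2 -0.64, SE 0.14, adjusted p = 0.0176, limma), while 1 of its 3 probes did not pass (-0.13, adjusted p = 0.309). The Tctn3 call was lost without the 8- or 9-week mogp-TAg or the 7- or 9-week wildtype mouse (adjusted p = 0.0521 to 0.0676, limma), and that of B9d2 without the 8-week mogp-TAg mouse (adjusted p = 0.0610). Tmem67, the membrane receptor meckelin, lay among the 25% dimmest probes and differed by -0.09, adjusted p = 0.583.

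The NPHP module and RPGR fell in 0 of 3 measured genes by the adjusted test, with 1 at an unadjusted p below 0.05. Rpgr, a protein with RCC1-like repeats mutated in human X-linked retinitis pigmentosa, had 168, 144 and 129.6 in the mogp-TAg mice, against 203, 173 and 195 in the wildtype mice (log2 -0.37, SE 0.12, adjusted p = 0.0658, limma). Its groups did not overlap. Rpgrip1l, a scaffold of the transition zone, had 156, 164 and 176 in the mogp-TAg mice and 180.0, 187 and 189.8 in the wildtype mice (log2 -0.17, SE 0.08, adjusted p = 0.192, limma). Nphp4 differed by -0.16, adjusted p = 0.326, and its 95% confidence interval -0.40 to 0.08 overlapped 0. That the MKS genes passed and the NPHP genes did not was not tested as a difference. Arl3, a GTPase that releases lipid-anchored proteins inside the cilium, had 963, 946 and 1103 in the mogp-TAg mice and 1377, 1345 and 1469 in the wildtype mice (log2 -0.48, SE 0.09, adjusted p = 0.0114, limma), and both of its probes fell. Its call was lost without the 8-week mogp-TAg mouse (adjusted p = 0.0579).

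The 10 genes with more than 1 probe gave mixed precision. All probes fell in 4 of them, Arl3, Ift81, Tctn2 and Ttc8, some fell in Ift172, Ift20, Ift27 and Tctn3, and none passed in Bbs9 and Ift140. In 0 genes were probes called in opposite directions. Over all 53 probes 32 fell and 0 rose, against 10.9% lower and 10.5% higher among all probes.

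The repeats were read apart as well, since their array medians differed. On the repeat 1 arrays 18 of 39 genes fell, against 10.5% of all genes, and on the repeat 2 arrays 16 fell, against 8.75%. Only 11 genes were called on both repeats. Of the 24 genes lower in the main fit, 15 were called on repeat 1 and 16 on repeat 2. Wdr34, Cluap1, Bbs4 and Bbs5 were called on neither. The difference lay below 0 in 37 of 39 genes in each repeat, and the median log2 difference was -0.39 in repeat 1 and -0.43 in repeat 2. Dync2li1 differed by -1.16 and -1.17 in repeats 1 and 2, while Ift57 differed by -0.49 and -0.03. The repeats of a single mouse differed by a median of 0.18 per gene on the log2 scale, and by 0.99 at most. With the genotype means removed, arrays of different genotype correlated at -0.128 to 0.515 within a repeat number. Across repeat numbers they correlated at -0.486 to 0.126, so arrays of the same repeat tended to shift together.

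**Figure D3:**
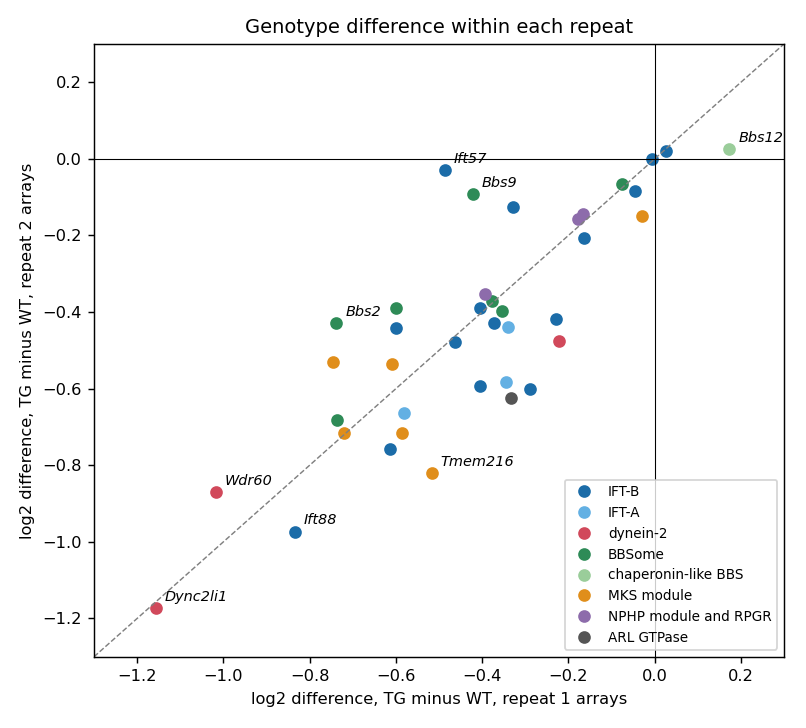
Log2 difference of mogp-TAg minus wildtype mice on the repeat 1 arrays (horizontal) and the repeat 2 arrays (vertical), 1 point per gene, coloured by complex, with 3 arrays per genotype on each axis. The dashed line marks equal differences. Dync2li1, Wdr60 and Ift88 lie at the lower left in both repeats, and Ift57 and Bbs9 lie far from the line.

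A genotype by age term tested whether the differences grew or shrank from week 7 to week 9. By limma 0 of 39 genes passed after adjustment, and 0 had an unadjusted p below 0.05, against 0% and 7.13% of all genes. The median difference was -0.39 at 7 weeks, -0.39 at 8 weeks and -0.45 at 9 weeks, each from 1 mouse per genotype and without a test. The genes with the lowest p were Ttc30a1 (0.26 log2 per week, SE 0.11, adjusted p = 0.755), Bbs4 (-0.22, SE 0.10, adjusted p = 0.758) and Bbs9 (-0.31, SE 0.16, adjusted p = 0.766) by limma. The difference of Bbs4 was -0.21 at 7 weeks, -0.28 at 8 weeks and -0.64 at 9 weeks. The fit had 2 residual degrees of freedom.

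A trend with age shared by both genotypes was called for 0 of 39 genes by limma, and 2 had an unadjusted p below 0.05, against 0% and 8.97% of all genes. Bbs9 changed by -0.47 log2 per week (SE 0.09, adjusted p = 0.488, limma) and Ift22 by 0.16 (SE 0.05, adjusted p = 0.589, limma). Ift88 came next, at 0.12 (SE 0.05, adjusted p = 0.633, limma).

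Other genes of the cilium were described in 7 lists of 121 genes in all, of which 47 fell and 6 rose, against 12.5% and 10.4% of all genes. Tekt1 and Ccdc40, both lower, stand in 2 lists and are counted once here. The 6 became 1 without the 8-week mogp-TAg, the 9-week mogp-TAg or the 9-week wildtype mouse, and 3 without the 7-week wildtype mouse. In these fits the higher calls over all 11229 genes came to 613, 890, 757 and 818, against 1171 with every mouse. Of 24 genes of kinesin-2 and of entry into the cilium, 5 fell and 2 rose, with a median of -0.17. The kinesin-2 adaptor Kifap3 had 545, 629 and 643 in the mogp-TAg mice and 757, 793 and 882 in the wildtype mice (log2 -0.42, SE 0.10, adjusted p = 0.0264, limma), and the motor subunit Kif3a had 692, 816 and 776 in the mogp-TAg mice and 912, 959 and 1178 in the wildtype mice, just short of the threshold (adjusted p = 0.0509, limma). The tubby-like Tulp2 (-0.90, adjusted p = 0.0171) and the GTPase Rabl2 (-0.80, adjusted p = 0.0124), which binds IFT-B, fell most. Arl2bp, an effector that binds ARL2 and ARL3, rose, with 924, 702 and 602 in the mogp-TAg mice against 299, 359 and 267 in the wildtype mice (log2 1.26, SE 0.18, adjusted p = 0.00307, limma). Rab8a, which brings vesicles to the base of the cilium, rose as well (0.35, adjusted p = 0.0434).

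For the lists that follow, the shares over all genes were again 12.5% lower and 10.4% higher. Among 18 further genes of the transition zone and the inversin compartment 4 fell and 0 rose, with a median of -0.19. Ahi1, mutated in human Joubert syndrome, had 329, 337 and 301 in the mogp-TAg mice and 545, 557 and 531 in the wildtype mice (log2 -0.76, SE 0.08, adjusted p = 0.00106, limma), and the ankyrin repeat protein Anks6 (-0.47, adjusted p = 0.0323), the Joubert syndrome gene Cspp1 (-0.38, adjusted p = 0.0384) and the membrane protein Tmem80 (-0.38, adjusted p = 0.0394) fell too. Of 6 further BBSome and chaperone genes only Wdpcp fell (-0.81, adjusted p = 8.44e-04), and 0 rose. The basal body list had 1 of 13 lower, the tubulin-modifying factor Cep41 (-0.40, adjusted p = 0.0250), and 3 higher. These were Ccp110 (0.42, adjusted p = 0.0277), which caps centrioles and blocks cilium formation, its partner Kif24 (0.29, adjusted p = 0.0346) and the centriole protein Poc1b (0.52, adjusted p = 0.0234). Of 8 genes of cilium signalling 0 rose and 0 fell by limma, with the lowest p in Smo (-0.38, adjusted p = 0.0531) and Iqce (-0.53, adjusted p = 0.0712). In this list 3 genes had an unadjusted p below 0.05.

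Of 17 genes in the list of ciliogenesis regulators, which also holds the axoneme gene Tekt1, 6 fell and 1 rose. Foxj1, the factor that switches on motile cilia genes, had 141, 161 and 128 in the mogp-TAg mice and 180.0, 191 and 234 in the wildtype mice (log2 -0.49, SE 0.13, adjusted p = 0.0367, limma). Rfx2, a factor that binds the X-box, had 798, 953 and 627 in the mogp-TAg mice and 1326, 1032 and 1505 in the wildtype mice (log2 -0.70, SE 0.19, adjusted p = 0.0368, limma), whereas Rfx3 lay among the 25% dimmest probes (-0.05, adjusted p = 0.732). The members of this list that fell most were Tekt1, a tektin of the axoneme (-1.68, adjusted p = 8.44e-04), and Fank1 (-1.43, adjusted p = 4.11e-04), and the factor E2f4, which works in centriole amplification, rose (0.42, adjusted p = 0.0309).

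The motile axoneme list holds structural genes of the axoneme together with other markers of ciliated cells. Of its 37 genes 32 fell and 0 rose, with a median of -1.18. The mean level of that list, relative to the wildtype mean, was -1.27 to -1.02 in the mogp-TAg mice, against -0.11 to 0.12 in the wildtype mice. The mean of the 39 transport and gate genes was -0.46 to -0.38 in the same mogp-TAg mice, and the difference between the lists was not tested. The cadherin Cdhr3 had 905, 585 and 413 in the mogp-TAg mice and 3238, 2552 and 3341 in the wildtype mice (log2 -2.33, SE 0.27, adjusted p = 0.00130, limma), and the dynein assembly factor Dnaaf1 fell by a like amount (-2.17, adjusted p = 7.73e-04). The smallest falls of the list were those of Dnah2 (-0.62, adjusted p = 0.00704) and Rsph3a (-0.63, adjusted p = 0.0122). All lists were chosen with earlier results of these data known.

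**Figure D4:**
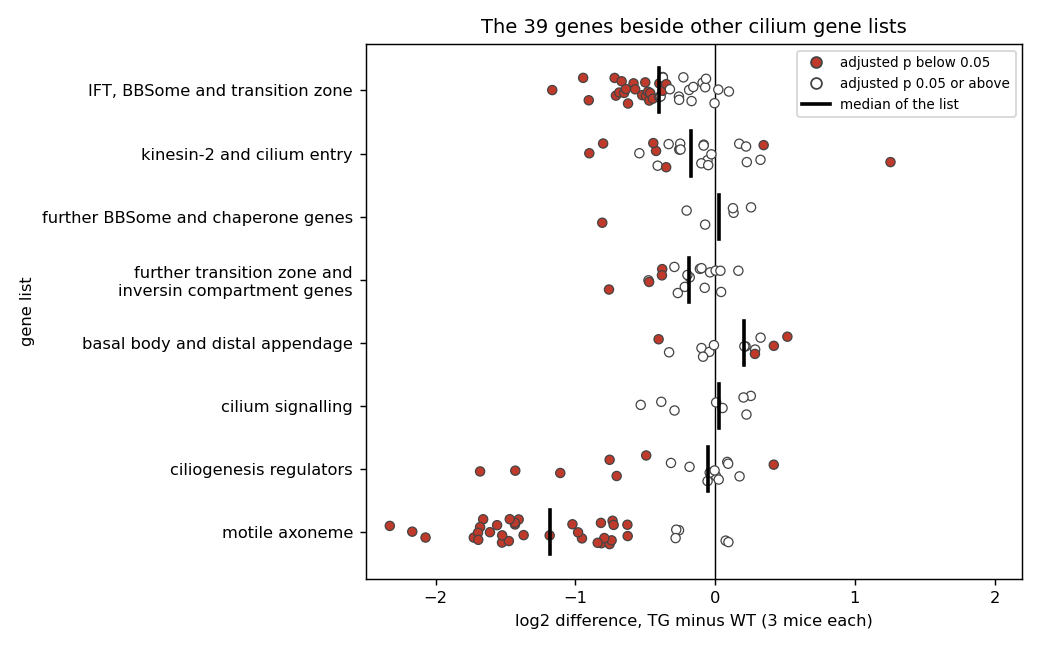
Log2 difference of mogp-TAg minus wildtype mice (horizontal) for the genes of each list (down the page), 1 point per gene with vertical jitter. Filled points have an adjusted p below 0.05 and bars mark the median of a list, which was -0.40 for the 39 genes and -1.18 for the motile axoneme.

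Markers of several other cell types differed between the genotypes as well, while the general epithelial list had 1 call and the ovary list 0. Over all genes tested, 12.5% were called lower and 10.4% higher. The summed signal of the axoneme list was 13726 to 16681 in mogp-TAg and 34092 to 41399 in wildtype mice. Markers of cycling cells rose in 13 of 13 cases, and their summed signal was 21416 to 31541 in mogp-TAg and 2543 to 4172 in wildtype mice, and differences ran from Ccna2 (0.75, adjusted p = 0.00503) to Prc1 (4.06, adjusted p = 4.86e-04). Secretory markers had 4 of 13 lower and 2 higher, with sums of 55717 to 72786 in mogp-TAg and 51557 to 59333 in wildtype mice, and differences from Chad (-2.04, adjusted p = 0.00654) to Slc26a4 (2.07, adjusted p = 7.02e-04). General epithelial markers had 0 of 13 lower and 1 higher, with sums of 15072 to 17609.5 in mogp-TAg and 13914 to 15802 in wildtype mice, and differences from Cdh1 (-0.23, adjusted p = 0.152) to St14 (0.84, adjusted p = 0.00902). The sums of the cycling list were apart between the genotypes, whereas those of the secretory and epithelial lists overlapped. The median difference of the secretory list was -0.08 although its sums reached higher in mogp-TAg mice. Smooth muscle markers fell in 10 of 12 cases, with sums of 40439 to 48072 in mogp-TAg and 63048 to 69357 in wildtype mice, and differences ran from Aoc3 (-2.22, adjusted p = 0.00440) to Synpo2 (0.13, adjusted p = 0.394). Mesothelial markers fell in 8 of 10 cases, with sums of 2106 to 3042 in mogp-TAg and 6501 to 8999.7 in wildtype mice, and differences ran from Wt1 (-2.26, adjusted p = 0.00638) to Krt14 (-0.10, adjusted p = 0.665). In both lists every transgenic sum lay below every wildtype sum. Endothelial markers had 4 of 11 lower and 0 higher, with sums of 4782 to 6942 in mogp-TAg and 7575 to 8669 in wildtype mice, and differences ran from Esam (-0.92, adjusted p = 0.0171) to Cdh5 (-0.0041, adjusted p = 0.984). Macrophage markers had 2 of 10 lower and 5 higher, with sums of 8107 to 12335 in mogp-TAg and 5577 to 6574 in wildtype mice, and differences ran from Cd163 (-0.97, adjusted p = 0.00118) to Ms4a7 (1.40, adjusted p = 0.00603). The endothelial sums were lower, and the macrophage sums higher, in every transgenic mouse. Fibroblast markers had 3 of 11 lower and 1 higher, with sums of 30019 to 35207 in mogp-TAg and 34552 to 43297 in wildtype mice, and differences from Dpt (-1.91, adjusted p = 5.46e-04) to Mfap5 (1.39, adjusted p = 0.0115). The median difference of the fibroblast list was 0.21, although its sums were on the whole lower in mogp-TAg mice. Adipocyte markers had 2 of 5 lower and 0 higher, with sums of 685 to 1249.7 in mogp-TAg and 2117 to 2375 in wildtype mice, and differences from Plin4 (-2.02, adjusted p = 0.00426) to Lep (-0.17, adjusted p = 0.495). Ovary markers had 0 of 7 called either way by limma, with sums of 721 to 2118 in mogp-TAg and 709 to 976 in wildtype mice, and differences ran from Inhba (-0.11, adjusted p = 0.820) to Inha (0.54, adjusted p = 0.618). Signals were not background-subtracted, so no marker is at 0. The part of these cell types in the differences of the transport and gate genes was not tested.

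The promoter windows were counted for all 34 genes that had one. Letters within 1 mismatch of the X-box were found in 4 genes, or 11.8%, against 1.12% of all 27025 genes with a window. Besides the Tctn2, Bbs7 and Ttc26 matches shown, the other lay in Tmem216, after its start. Within 2 mismatches they were found in 9 genes, or 26.5%, against 3.99%, and within 3 in 17 of 34 genes, against 14.6%. Of the 21 lower genes with a window 10 held a match within 3 mismatches, and of the 13 others 7 did. The forkhead letters TGTTTAC were in 0 of 34 windows, against 4.05% of all. The E2F letters TTTCCCGC were in 0, against 1.24%, and TTTGGCGC in 2, against 0.585%. CCAAT was in 19, or 55.9%, against 41.1%. Among the 9067 measured genes with a window the shares were 1.17%, 4.12% and 14.1% for the X-box within 1, 2 and 3 mismatches, 3.28% for TGTTTAC, 2.06% for TTTCCCGC, 0.915% for TTTGGCGC and 43.1% for CCAAT. Letters were searched on both strands, and a match is a description of the sequence and no sign of binding.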

How the data were processed

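Illumina BeadChip arrays of 12 samples, 2 repeats of each of 6 mice, were read in GenomeStudio 1.6.0, per the submitters' processing notes. The values deposited by the authors are scores that, by their distribution, were standardized within each array, and the steps behind them are not given in the sources used here. Signals were recovered from these scores array by array as an exponential of a linear function, since signals carry 1 decimal, and 100% of values were recovered within 0.01 of the last digit. A table of 24 further columns whose names match no single sample was not used. Recovered signals were quantile-normalized without background subtraction, taken to log2 and averaged per mouse, so differences of dim genes are understated. Probes blank on every array were left out, and 16664 were tested with limma 3.58.1 in R 4.3.3 (lmFit and eBayes, genotype only, two-sided, Benjamini-Hochberg, threshold 0.05), with 4 residual degrees of freedom. Each gene is given by its probe with the highest mean signal. The genotype by age and the age fits used age in weeks as a number. Symbols came from the platform annotation and matched the RefSeq gene table of GRCm38.p6 for all 39 genes.

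The genotype fit was tested on simulated data with 200 changed probes among 16664. It recovered 98% of changes of log2 1 and 100% of changes of log2 2, with 12 false among 210 calls. No recovery is given for smaller changes, the size of most differences here. Array number and signal over background limit the precision. Genes given in full were the 10 lowest and 5 highest called members, the 2 lowest p of each complex and genes whose probes disagree. In each other cilium list they were the extremes past the threshold (by p in the list without a call), and in each marker list the extremes, called or not. Traf3ip1, B9d2, Bbs2, Kifap3, Kif3a, Rfx2, Rfx3 and Top2a are given besides and were chosen after their values were seen. The members and lists were chosen with earlier results of these data known. Python 3.11.15 with numpy 2.4.6, pandas 2.3.3 and matplotlib 3.10.9 was used. Alternatives were another scaling, normexp background correction, the deposited scores, a filter on dim probes, single repeats, blocks and left-out mice.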

Additional observations from a re-analysis of the deposited data

Results flagged for a closer look

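For 2 genes the genotype difference pointed opposite ways at different ages, on both repeats of the mice concerned. Ttc30a1 differed by -0.26 at 7 weeks and -0.18 at 8 weeks, and by 0.25 at 9 weeks. Its signal lay among the 25% dimmest probes. Ift80 differed by -0.077 at 7 weeks and 0.14 at 8 weeks. Each value rests on 1 mouse per genotype, and these differences between single ages were not tested. The linear genotype by age term gave Ttc30a1 an adjusted p of 0.755 by limma.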

How the results depend on the processing

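Of the 24 lower genes, 7 (B9d1, Bbs7, Dync2li1, Ift88, Tctn2, Tmem216 and Wdr60) were called under all 20 alternatives and 19 under the 9 that keep all arrays, the others being Wdr34, Bbs2, Ift20, Bbs4 and Ift172; in 0 did the direction turn, and 0 of the 39 rose in any setting. Leaving out 1 mouse gave 11 to 22 lower genes, and leaving out both 7-, 8- or 9-week mice, added after seeing the data, gave 15, 9 and 11. The 6 higher related genes became 3 with age as a replicate block, 3 on repeat 1 and 1 on repeat 2 arrays, 1 to 6 with 1 mouse left out, and 3, 1 and 1 without both mice of 7, 8 or 9 weeks. The median of -0.40 was -0.28 on the deposited scores (array SD units), -0.46 with median scaling, -0.47 without dim probes and -0.46 without both 7-week mice. With the genotype means removed, the deviations of same-age mice correlated at 0.324 (7 weeks), 0.0964 (8 weeks) and -0.0707 (9 weeks). With 1 pair of mice per age, these values cannot decide whether age paired the mice. With age as a replicate block 22 genes fell by limma, without Ift20 (adjusted p = 0.0568) and Bbs4 (adjusted p = 0.0773). With repeat number as a replicate block 25 fell by limma, without Wdr34 (adjusted p = 0.0738). Genes near 0 changed sign, and so did Bbs9 (-0.26, SE 0.32), whose mice spread widely. With 1 mouse left out Ift46 ran from -0.023 to 0.022, Ttc30a1 from -0.18 to 0.019, Ift80 from -0.057 to 0.065, Bbs9 from -0.52 to 0.10 and Tmem67 from -0.16 to 0.0036. Without both mice of an age, Ift46 became 0.0040 (9 weeks), Ttc30a1 0.035 (7 weeks) and Ift80 -0.035 (8 weeks). The cause was not tested. Over all genes, 1402 lower and 1171 higher became 684 and 613 without the 8-week mogp-TAg mouse, 904 and 757 without the 9-week wildtype mouse, 530 and 453 without both 8-week mice and 611 and 563 without both 9-week mice. Signals near the array floor limit Ift57, Ift74, Tmem67, Ttc30a1 and Ift46, and Bbs1 and Bbs12 lay just above the dim limit.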
